A study of Homo sapiens with 62 samples.

Results

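The 37 genes encoded by the human mitochondrial genome were followed in RNA sequencing of 5 cell lines with a chromosome arm gain and of clones freed of the extra copy. Members were all genes whose symbol starts with MT- on the mitochondrial chromosome. They comprised 13 mRNA genes, 2 rRNA genes and 22 tRNA genes of the 58735 genes in the tables of A2058, AGS, HCT116 and MCF10A. The A2780 tables list 48162 genes and hold the 13 mRNA genes, so its mitochondrial rRNAs and tRNAs were not analysed here.

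The series holds 62 libraries in 16 groups. In each line, WT is the parental population with the gain, and a loss group holds single-cell clones from which ReDACT, a set of chromosome engineering methods, removed the extra copy. The melanoma line A2058 had 4 WT libraries, 4 of 1q-loss (2 clones), 6 of 7p-loss (3 clones) and 4 of 8q-loss (2 clones), all made with the version named CO in the labels. The colorectal cancer line HCT116 had 2 WT libraries and 4 of 8q-loss (2 clones, version CO). The gastric cancer line AGS had 1 WT library, 2 TK+ libraries of 2 clones, and 5 of 1q-loss, 1 for each of the clones c1, c4, c6 and c7 (version NS) and c11 (version CO). The ovarian cancer line A2780 had 2 WT libraries, 2 TK+ libraries and 6 of 1q-loss (clones c2, c5 and c6, version NS). TK+ cells carry an integrated TK cassette and keep the gain. The breast epithelial line MCF10A had 2 WT libraries and 8 of 1q-loss (clones c1 to c3 of version TR and c4 of version CO), and the same set again with hRASV12, an activated HRAS (called hRas here). All cells were plated and grown for 24 h, and RNA was selected with poly-T beads. Libraries of 1 clone are not independent clones, in MCF10A too, and the tests of loss against control entered each library separately. Where the labels do not call replicates biological, as they do for MCF10A, a p-value measures only the spread between these libraries.

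Library totals ran from 15042068 to 30984036 counts. No pair of libraries within a group agreed within counting noise, so all 62 entered. Lineage markers are given in CPM (a gene's counts scaled to a common library total). The 5 melanocyte markers of A2058 had medians of 690 (PMEL), 599 (SOX10), 138 (MITF), 4.17 (TYR) and 2.17 CPM (MLANA), and SOX10 ran from 24.4 CPM in 1q-loss to 696 CPM. In MCF10A, 1 clone stood apart from the rest: hRas 1q-loss c2 had 566 and 547 CPM of the basal marker KRT5, where the line's median was 3820 CPM, 3.26 and 2.62 CPM of CDH1 (median 273), 0.511 and 0.637 CPM of TP63 (median 64.8) and 260 and 280 CPM of the fibroblast marker DCN (median 6.28). Clone c4 with hRas lay between, with 2224 and 2365 CPM of KRT5 and 85.7 and 77.2 CPM of DCN. AGS and HCT116 had KRT8 medians of 3676 and 3060 CPM. In A2780 4 of the 5 ovarian cancer markers, PAX8, WT1, MUC16 and EPCAM, had medians under 1 CPM, and the other, KRT8, had 136 and 131 CPM in WT and 2.27 to 43.3 CPM in TK+ and loss libraries, while the fibroblast markers COL1A2, LUM and DCN had medians of 367, 159 and 268 CPM. In HCT116 the colon list was split, with EPCAM and CDX2 at medians of 72.3 and 36.4 CPM, KRT20 at 1.21 CPM, and CDH17 and VIL1 at 0 CPM. In AGS 4 of the 5 gastric markers had medians from 77.2 CPM (GATA6) to the value of KRT8, while CLDN18 peaked at 0.191 CPM.

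Mitochondrial DNA is copied into long transcripts from both strands by a dedicated polymerase, POLRMT, with the factors TFAM and TFB2M. The transcripts are cut mostly at the tRNAs that lie between the other genes. The heavy-strand promoter yields both rRNAs, 14 tRNAs and 12 mRNAs, and the light-strand promoter yields 8 tRNAs and the mRNA of MT-ND6. All 13 mRNAs encode subunits of the respiratory chain or ATP synthase. MT-ND1 to MT-ND6 and MT-ND4L belong to complex I, MT-CYB to complex III, MT-CO1 to MT-CO3 to complex IV, and MT-ATP6 and MT-ATP8 to ATP synthase. Most of these mRNAs carry short poly(A) tails, whereas MT-ND6 is known to lack one and tRNAs are processed differently. A poly-T selection therefore samples these classes unequally, and the levels below describe what was captured, not the whole mitochondrial RNA.

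Several members share or nearly share sequence, which bears on how their reads are counted. The end of MT-ATP8 and the start of MT-ATP6 occupy the same 46 bases (MT 8527 to 8572, heavy strand transcript, 22.2% of the MT-ATP8 gene), shown in capitals in reference sequence (GENCODE 29 transcripts on GRCh38).
MT-ATP8 end: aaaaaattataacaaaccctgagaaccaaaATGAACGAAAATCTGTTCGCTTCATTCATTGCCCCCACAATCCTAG
MT-ATP6 start: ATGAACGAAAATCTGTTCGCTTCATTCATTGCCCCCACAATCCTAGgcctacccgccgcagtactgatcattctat
The genes MT-ND4L and MT-ND4 share 7 bases (MT 10760 to 10766), again in capitals.
MT-ND4L end: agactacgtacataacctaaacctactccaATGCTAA
MT-ND4 start: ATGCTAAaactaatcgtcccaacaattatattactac
Whether the authors' counting dropped reads in such overlaps, and whether it used the strand, is not given in the sources used here. MT-ATP8 had the lowest level per base in every line, described below, and the part of the overlap in that was not tested.

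Of the 13 mRNA genes, 6 end without a whole stop codon in the genome, and the poly(A) tail is known to complete it. The ends of MT-ND1 and MT-ND3, which carry results below, are shown (MT 4237 to 4262 and 10380 to 10404) with the bases after the last whole codon in capitals, beside MT-ND6 (MT 14149 to 14172, opposite strand), whose last codon is in capitals.
MT-ND1 3' end: atctccagcattccccctcaaaccTA
MT-ND3 3' end: caaaaaggattagactgaaccgaaT
MT-ND6 3' end: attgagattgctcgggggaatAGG
The tRNA genes with most counts were MT-TC (MT 5761 to 5826), MT-TN (MT 5657 to 5729) and MT-TP (MT 15956 to 16023), all transcribed from the light-strand promoter. MT-TH (MT 12138 to 12206) lies on the other strand, directly after MT-ND4, and in 1 comparison below it fell while MT-TP rose.
MT-TC: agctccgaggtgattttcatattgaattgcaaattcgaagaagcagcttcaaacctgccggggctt
MT-TN: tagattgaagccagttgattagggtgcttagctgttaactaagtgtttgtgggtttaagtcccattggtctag
MT-TP: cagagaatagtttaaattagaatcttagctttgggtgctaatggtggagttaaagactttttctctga
MT-TH: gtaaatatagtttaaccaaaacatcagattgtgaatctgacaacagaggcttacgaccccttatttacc

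A block of chromosome 1 holds old nuclear copies of mitochondrial DNA, among them MTATP6P1, which differs from MT-ATP6 at 10 of 681 positions. A stretch of 120 bases (MT 8599 to 8718, and chromosome 1 633768 to 633887 in GRCh38) shows how close they are, with the 4 differing bases in capitals.
MT-ATP6 stretch: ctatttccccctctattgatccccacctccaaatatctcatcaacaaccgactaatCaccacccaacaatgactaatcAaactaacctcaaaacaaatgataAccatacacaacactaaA
MTATP6P1 stretch: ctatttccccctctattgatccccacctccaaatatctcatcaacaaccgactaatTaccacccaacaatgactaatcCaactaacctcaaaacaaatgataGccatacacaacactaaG
The longest run without a difference was 141 bases for this copy, 266 for MTND2P28 against MT-ND2 and 245 for MTCO1P12 against MT-CO1, so a read inside such a run cannot be assigned by sequence.

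The mitochondrial share of all counts differed mainly between lines. The median over libraries was 1.87% in MCF10A (range 1.25 to 3.12%), 2.91% in A2058 (1.93 to 4.60%), 6.31% in AGS (5.18 to 9.15%), 8.31% in HCT116 (6.62 to 9.03%) and 8.59% in A2780 (6.90 to 10.7%, 13 mRNAs). A2780 was set apart by its tables, which were counted with another annotation, so its level is not on the same footing as the other 4 lines. HCT116 and AGS overlapped, as did A2058 and MCF10A, and neither of the first pair overlapped with either of the second. With the counting error alone, the 95% Wilson interval of the WT library of AGS was 5.17 to 5.19%, and PCR copies make even that too narrow. A share is relative to all other RNA in the bulk sample, and fewer cells of a kind, less mitochondrial RNA per cell and more RNA of other genes cannot be told apart.

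**Figure D1:**
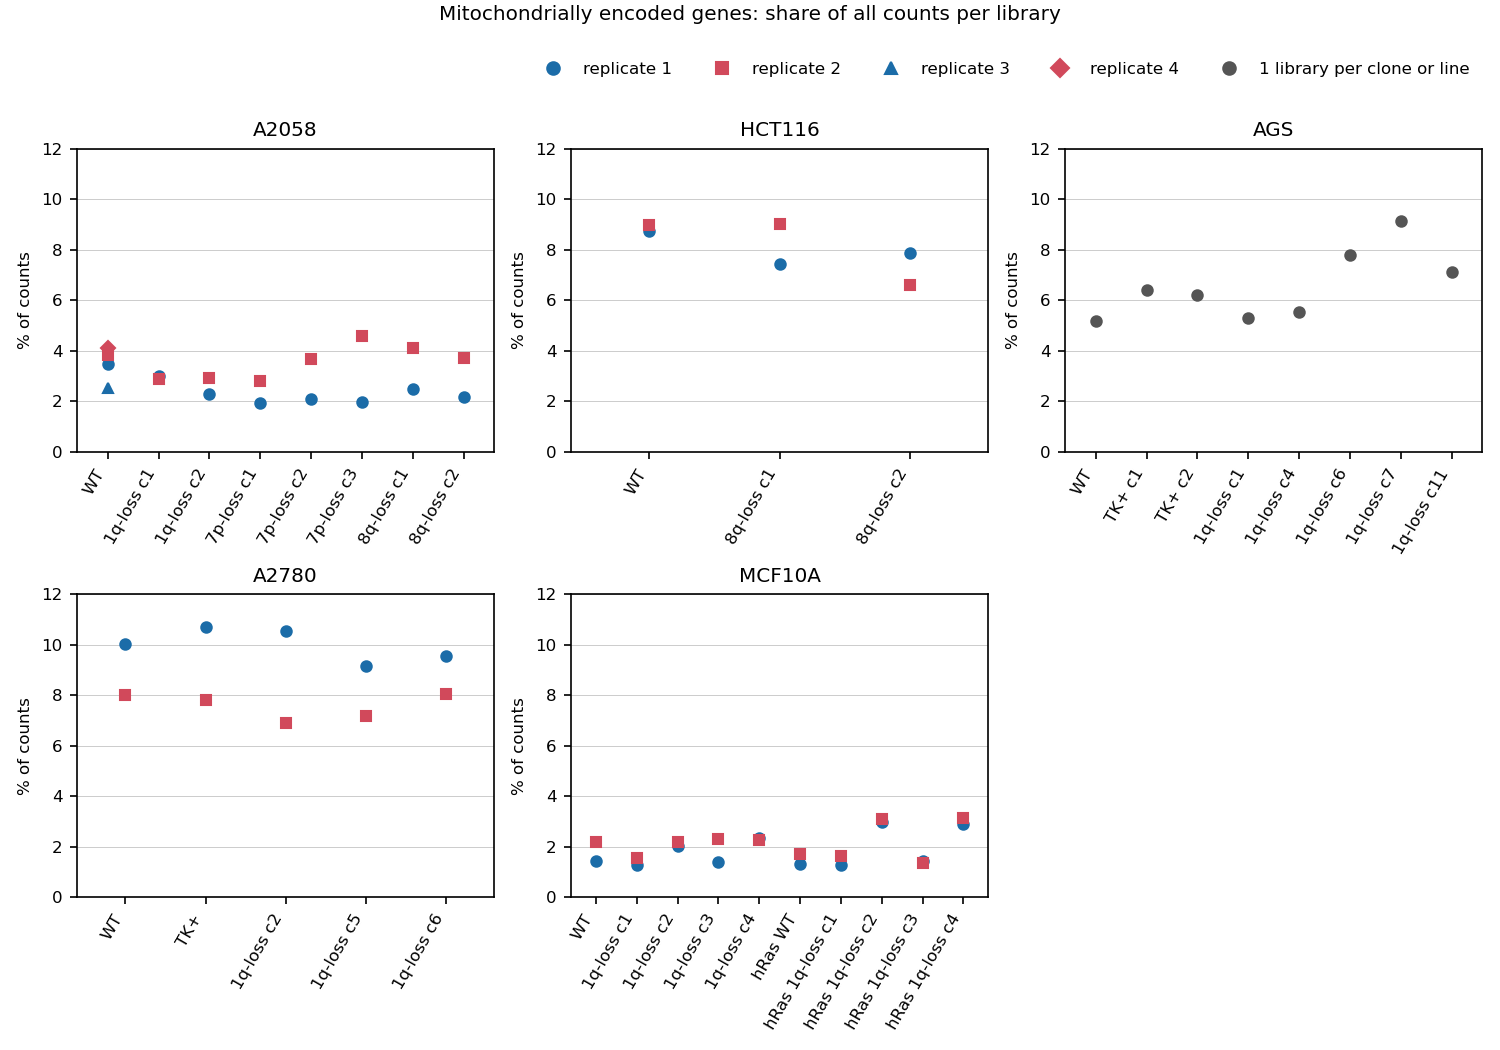
Share of all counts that fell on mitochondrial genes (y axis, percent) in each library, in 1 panel per line, with clones and control groups along the x axis. Points are libraries, shaped and coloured by replicate number, and A2780 counts the 13 mRNAs only. In none of the 11 comparisons between groups do the points of both groups separate fully.

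Loss of a gained arm left the share within the range of its control libraries or overlapping it in all 8 loss comparisons. In A2058 WT, the shares were 3.47, 3.82, 2.52 and 4.12% in replicates 1 to 4. The 1q-loss libraries had 3.01 and 2.90% (c1) and 2.30 and 2.92% (c2), and the mean log2 share was 0.31 below that of WT against a pooled SD of 0.25. WT replicate 3 lies inside the 1q-loss range, so the groups overlapped. In 7p-loss the pairs were 1.93 and 2.83%, 2.11 and 3.68%, and 1.97 and 4.60% for c1 to c3, and in 8q-loss 2.49 and 4.12%, and 2.19 and 3.71%. In both of these groups the 2 libraries of a clone were further apart than the group means (log2 differences from WT of -0.35 and -0.18).

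HCT116 WT libraries had 8.74 and 8.98%, and the 8q-loss clones 7.45 and 9.03% (c1) and 7.89 and 6.62% (c2). The 13 mRNAs alone took 7.63 and 7.88% in WT and between 5.16 and 6.38% in the 4 loss libraries, without overlap. The rRNAs, described below, were higher in the loss libraries, and the total overlapped. In AGS the 3 libraries that keep the gain had 5.18% (WT), 6.42 and 6.20% (TK+), and the loss clones had 5.31% (c1), 5.55% (c4), 7.78% (c6), 9.15% (c7) and 7.14% (c11). Clones c6, c7 and c11 lay above all 3 gain libraries, and c1 and c4 inside their range. In A2780 the log2 difference between loss and gain libraries was -0.10, smaller than the difference between the replicates of each set. Nuclear RNAs known to lack poly(A) summed to 10.8 to 38.0 CPM in the 4 A2780 gain libraries and 3.46 to 8.51 CPM in the 6 loss libraries, without overlap. In A2780 this sum holds only RMRP, HIST1H4C and HIST1H1B, fewer genes than in the other lines. RMRP alone passed the filter, at a log2 change of -1.76 (edgeR adjusted p = 0.013). The part of these RNAs in the A2780 results was not tested.

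In MCF10A the shares were 1.42 and 2.17% in WT, and 1.26 and 1.53% (c1), 2.04 and 2.17% (c2), 1.39 and 2.32% (c3) and 2.32 and 2.27% (c4) after 1q loss. With hRas they were 1.32 and 1.70% in WT, 1.25 and 1.64% (c1), 2.98 and 3.07% (c2), 1.45 and 1.37% (c3) and 2.88 and 3.12% (c4). The hRas clones fell into a pair near 3%, c2 and c4, and a pair inside or just below the WT range, c1 and c3. The log2 difference of hRas 1q-loss from hRas WT, 0.46, was smaller than its pooled SD of 0.56.

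The balance between the 13 mRNAs was compared per length, as each gene's counts per base in percent of the sum over the 13. MT-CO2 or MT-CO1, both core subunits of cytochrome c oxidase, led in each of the 5 lines, with MT-CO2 first at a median of 19.0% in A2058, 22.2% in HCT116 and 20.1% in MCF10A and MT-CO1 first at 18.5% in AGS and 15.3% in A2780. MT-CO2 itself reached 9.58% in A2780, below MT-CO1, MT-ND4, MT-ND1 and MT-CO3 there. MT-ATP8 was lowest in all 5 lines, from 0.39% in A2780 to 1.06% in A2058.

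A2780 stood apart in the complex I genes MT-ND1 and MT-ND6. MT-ND1 had a median of 10.3% per base (range 9.09 to 11.6%) against 3.56 to 5.38% as medians of the other lines, and MT-ND6 had 9.40% (8.44 to 11.2%) against 1.92 to 5.62%. MT-ND5, whose gene meets that of MT-ND6 end to end on the opposite strand, had 5.68% (5.27 to 7.04%) against medians of 1.99 to 4.30%. For MT-ND1 and MT-ND6 no library of another line reached the A2780 range. The other complex I genes did not separate. MT-ND2, MT-ND3 and MT-ND4L had A2780 medians of 5.04, 4.57 and 5.18%, among the medians of the other lines. MT-ND4 had its highest median in A2780, 10.6% (10.1 to 11.1%), but AGS reached 11.4%. AGS was next for MT-ND6, at 5.62% (4.18 to 7.10%), above every library of A2058, HCT116 and MCF10A, whose highest was 2.80%. Line, table version and counting differ together for A2780 and cannot be told apart.

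Within lines the balance also differed between clones. In AGS, MT-CO1 made up 24.1% of mitochondrial mRNA counts in c1 and 23.3% in c4, against 29.5 to 34.6% in the other 6 libraries. MT-ND4 lay the other way, at 17.0% in c4 and above the 11.3 to 14.3% of the other 6 libraries in c1 too. Clones c1 and c4 were also the 2 loss clones with the lowest mitochondrial share. In the MCF10A hRas clones MT-CO2 held at most 13.7% of mRNA counts in c2 and c4 and 15.3 to 15.9% in c1 and c3, which is the same split of clones as that of the share.

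**Figure D2:**
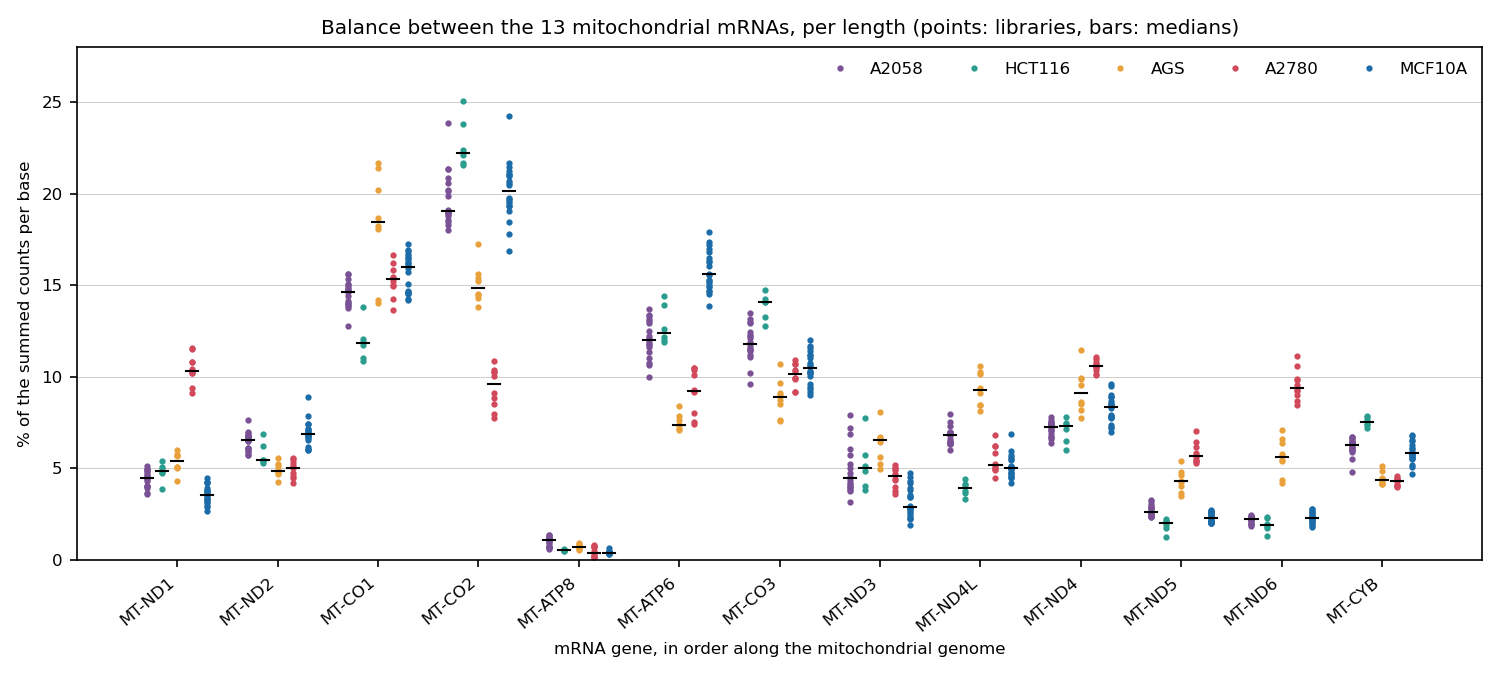
Counts per base of each of the 13 mitochondrial mRNAs (x axis, in genome order) as a percent of their sum (y axis), coloured by line. Points are libraries and bars are medians; A2780 lies above the other lines for MT-ND1 and MT-ND6, and MT-ATP8 is lowest in all 5.

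Taking each mRNA's share of the 13 mRNAs' counts in 11 comparisons of groups, ranges did not overlap in 19 of 143 cases, 8 of them between hRas WT and WT, with 2 libraries each. MT-ND5, a complex I subunit, separated most often. Its share was 8.06 to 10.5% in the 5 AGS loss clones and 6.67 to 7.70% in the 3 gain libraries. It was also higher without overlap in A2058 8q-loss (5.54 to 6.53% against 4.97 to 5.53%), in MCF10A 1q-loss (4.01 to 5.06% against 3.91 to 3.92%) and in hRas 1q-loss (4.15 to 5.10% against 3.98 to 4.01%), by narrow gaps. MT-ND1 held 4.63 to 5.20% in A2058 WT and 3.76 to 4.22% in 1q-loss, and MT-ATP6 at least 12.8% in both MCF10A WT libraries and 10.7 to 12.3% in 1q-loss. The other cases outside hRas WT were MT-ATP8 and MT-ND2 in HCT116 8q-loss and MT-ND4L in AGS, all higher in loss, MT-ND6 in MCF10A 1q-loss, described below, and MT-CYB, lower in A2780 TK+ than in WT.

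The rRNAs were set against the mRNAs in the same way. MT-RNR1 and MT-RNR2 encode the 12S and 16S rRNAs of the mitochondrial ribosome. Per 100 mRNA counts, A2058 WT had 15.2 ± 1.32 rRNA counts (SD, n = 4) and 1q-loss 10.8 ± 1.81 (SD, n = 4). MT-RNR1 alone ran from 2.60 to 2.85 in WT and from 1.59 to 2.13 in 1q-loss. MT-RNR2 ran from 11.3 to 14.1 in WT and from 6.88 to 10.7 in 1q-loss. Neither range overlapped, in contrast to the share.

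In summed rRNA counts per 100 mRNA counts, the other A2058 loss groups overlapped WT (13.9 to 17.0), with 10.5 to 15.6 in 7p-loss and 17.0 ± 2.92 (SD, n = 4, lowest 14.2) in 8q-loss. So did 1q-loss and its controls in AGS (18.7 to 27.2 against 19.9 to 24.2), in MCF10A (8.13 to 17.2 against 9.13 to 11.2) and with hRas (8.23 to 14.5 against 10.1 to 11.7).

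In HCT116, where another arm was removed, the ratio was higher in loss. The 2 WT libraries had 13.8 and 13.4 rRNA counts per 100 mRNA counts, 8q-loss c1 43.9 and 42.2, and c2 23.2 and 27.7. All 4 loss libraries exceeded both WT libraries and the clones did not overlap each other. The 16S to 12S ratio ran from 4.35 to 6.04 over the 6 libraries and was higher in both WT libraries than in all 4 loss libraries. By mean log2 values per 100 mRNA counts, MT-RNR1 in loss was at 2.91 times WT and MT-RNR2 at 2.35 times. Nuclear RNAs known to lack poly(A) summed to 14.8 and 5.57 CPM in WT and 4.74 to 16.4 CPM in the loss libraries, which overlap, and their part in the rRNA values was not tested.

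MT-RNR1 was unsteady in MCF10A. Per 100 mRNA counts it ran from 1.49 to 7.75 over the 20 libraries, with 1.49 and 4.90 in the 2 libraries of 1q-loss c2 and 7.75 and 2.24 in those of c3. The 16S to 12S ratio ran from 0.962 to 5.05 there, against 3.75 to 5.16 in A2058 and 8.90 to 15.2 in AGS. MT-RNR2 varied less, from 5.47 to 9.41 per 100 mRNA counts.

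**Figure D3:**
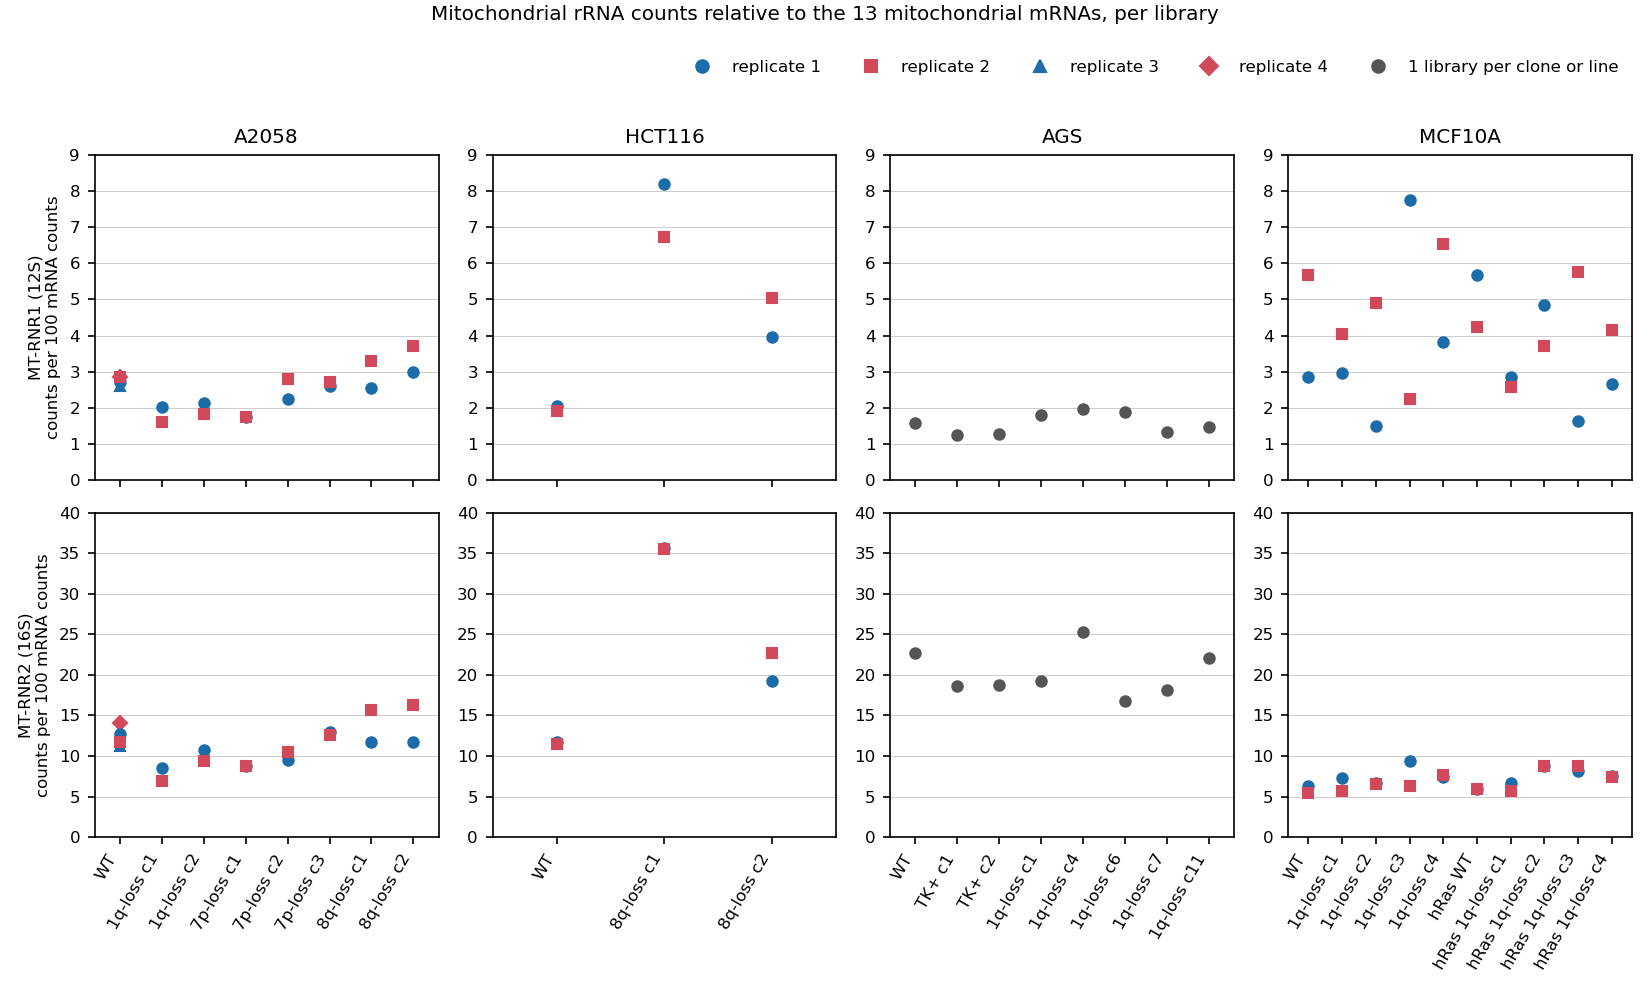
Counts of MT-RNR1 (upper row) and MT-RNR2 (lower row) per 100 mitochondrial mRNA counts (y axis) by library in A2058, HCT116, AGS and MCF10A, with clones and control groups along the x axis. Points are libraries, shaped and coloured by replicate number; HCT116 8q-loss libraries lie above both WT libraries and A2058 1q-loss libraries below all 4 WT libraries.

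MT-ND6, the single light-strand mRNA, was set against the sum of the 12 heavy-strand mRNAs. Per 100 of those counts MCF10A WT had 1.05 and 1.01, and the 8 1q-loss libraries ran from 1.19 to 1.56, without overlap. The hRas WT libraries had 1.14 and 1.33, also above both WT libraries. As an abundance MT-ND6 did not pass the test in either comparison, at a log2 change of 0.46 ± 0.30 (SE) after 1q loss (edgeR adjusted p = 0.595). With hRas, 1q-loss overlapped hRas WT for this ratio (1.26 to 1.56 against 1.14 to 1.33). In the other lines the ranges of loss and control libraries overlapped too.

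The 4 A2058 WT libraries, the controls of all 3 loss groups of that line, differed in pairs. Replicates 1 and 2 had 77.2 and 91.9 CPM of MT-ATP8, 518 and 501 CPM of MT-ND3 and 238 and 266 CPM of the nuclear RNA MALAT1. Per 100 member counts, replicate 1 had 0.586 counts on nuclear copies, and replicate 2 was also below replicates 3 and 4. Replicates 3 and 4 had 35.1 and 56.0 CPM of MT-ATP8, 684 and 809 CPM of MT-ND3, 85.9 and 160 CPM of MALAT1 and 0.846 and 0.865 counts on nuclear copies. The 8q-loss libraries had 79.1 to 138 CPM of MALAT1 and 0.725 to 1.09 counts on nuclear copies. In 1q-loss the values were 171 to 274 CPM and 0.543 to 0.657 counts, and in 7p-loss 158 to 307 CPM and 0.544 to 0.673 counts. What sets the WT pairs apart is not given in the labels, and its part in the 3 loss comparisons was not tested.

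Each member was then tested with the quasi-likelihood test of edgeR, fitted over all genes that passed a filter on low counts, and called at a Benjamini-Hochberg adjusted p under 0.05 over all those genes (edgeR adjusted p below). The 1q-loss clones of A2058 were the 1 loss group with members called by edgeR. Of 27 members tested, 7 were called, 1 higher and 6 lower, where 49.6% of 15387 genes were called, 25.3% higher and 24.3% lower. DESeq2 called 11. The other 10 members did not pass the filter. The members' share of calls was below that of all genes, and their median log2 change was -0.51 against -0.00 for all genes, with 26 of 27 below 0.

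The 2 rRNAs had the lowest adjusted p, though the tRNAs MT-TH and MT-TG changed by more. MT-RNR1 had 808, 946, 574 and 995 CPM in WT replicates 1 to 4, and 547 and 424 (c1) and 432 and 474 CPM (c2) after 1q loss. All 4 loss libraries lay below all WT libraries, and the log2 change was -0.79 ± 0.15 (SE, edgeR adjusted p = 0.00166). MT-RNR2 had 3821, 3915, 2487 and 4950 CPM in WT against 2305 and 1833 (c1) and 2177 and 2448 CPM (c2), again without overlap, at -0.76 ± 0.18 (edgeR adjusted p = 0.00458).

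Of the mRNAs, MT-ND3 and MT-ND1, both membrane subunits of complex I, fell. MT-ND3 had 518, 501, 684 and 809 CPM in WT and 434, 404, 383 and 405 CPM in 1q-loss, with no overlap and a log2 change of -0.59 ± 0.14 (edgeR adjusted p = 0.00469). MT-ND1 had 1405, 1540, 1037 and 1823 CPM in WT and 1020, 1123, 773 and 1062 CPM in 1q-loss, where WT replicate 3 lay inside the loss range, at -0.51 ± 0.16 (edgeR adjusted p = 0.0234). MT-CO1, the catalytic subunit of complex IV and the member with most counts in all 18 A2058 libraries, had 6989, 8369, 4933 and 8686 CPM in WT and 5231 to 6825 CPM in loss, and was not called. The other 10 mRNAs likewise did not pass the test.

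Of the tRNAs, 3 were called, at far lower levels. MT-TH fell from 4.69, 6.14, 4.08 and 13.2 CPM to 3.41, 2.56, 2.32 and 2.67 CPM (log2 change -1.33 ± 0.35, edgeR adjusted p = 0.00944), and MT-TG from 2.14, 2.19, 1.53 and 3.62 CPM to 1.37, 1.04, 1.36 and 1.22 CPM (-0.89 ± 0.28, edgeR adjusted p = 0.0212). MT-TP, on the light strand, rose from 51.2, 48.5, 38.1 and 58.5 CPM to 55.2, 65.2, 69.8 and 69.0 CPM (0.44 ± 0.13, edgeR adjusted p = 0.0151). Ranges did not overlap for MT-TH and MT-TG, and for MT-TP WT replicate 4 lay above the lowest loss library.

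These calls leaned on few libraries. Without WT replicate 3, the WT library with the lowest share, 23 members were called, 22 of them lower, and without clone c2 there were 4, all lower. Leaving out c1 replicate 1 or c2 replicate 2 gave 11 each. With replicates 1 and 2 as the only controls, edgeR called 11 members in 1q-loss, and with replicates 3 and 4 it called 5, while 7p-loss and 8q-loss gave 0 with either. MT-RNR1, MT-RNR2 and MT-ND3 were called under all 20 alternatives tried, but the log2 change of MT-ND3 was -0.29 with WT replicates 1 and 2 only and -0.84 with replicates 3 and 4 only. The 1q-loss libraries also differed from WT in lineage markers: all 5 of 5 melanocyte markers were lower without overlap, their sum 42.9 to 132 CPM against 1664 to 2704 CPM in WT, with TYR at 0 in at least 1 loss library. The 5 fibroblast markers summed to 146 to 266 CPM against 36.8 to 46.4 CPM in WT, and most of that sum was COL1A1 (107 to 240 against 15.2 to 22.3 CPM). PDGFRB was also higher (2.04 to 12.2 against 0.357 to 1.16 CPM), COL1A2 and LUM overlapped WT, and DCN had a lower median (0.593 against 1.48 CPM). The nuclear RNA NEAT1 fell by 0.79 on the log2 scale (edgeR adjusted p = 0.0305). Of the RNAs without poly(A), the histone gene HIST1H1B rose by 1.13 (edgeR adjusted p = 0.0136), HIST1H3B at 1.19 and RN7SL2 at -0.39 were not called, and their summed level overlapped (20.6 to 40.3 against 32.5 to 54.5 CPM in WT). The part of these in the mitochondrial changes was not tested. Marker shifts were not limited to 1q-loss. MLANA had 13.96 to 23.9 CPM in WT, 1.62 to 4.93 CPM in 7p-loss and 1.61 to 2.703 CPM in 8q-loss, without overlap. TYR had 97.1 to 159 CPM in WT and 2.08 to 6.67 CPM in 8q-loss, but overlapped WT in 7p-loss. SOX10, MITF and PMEL overlapped WT in both groups. The fibroblast sum was 66.9 to 83.2 CPM in 8q-loss, above WT, and overlapped WT in 7p-loss. The part of these shifts was not tested. The 3 A2058 loss comparisons share their 4 WT libraries.

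In 7p-loss of A2058 0 of 31 members tested were called by edgeR (0.908% of all genes), 3 had an unadjusted p under 0.05, and DESeq2 called 2, MT-ND3 and MT-TN. MT-ND3 had 501 to 809 CPM in the 4 WT libraries and 317, 378, 368, 465, 364 and 475 CPM in the 6 loss libraries, without overlap, at -0.66 ± 0.15 (edgeR adjusted p = 0.0856). In 8q-loss edgeR called 0 of 31 (2.03% of all genes), with 1 at an unadjusted p under 0.05 (MT-ATP8) and 0 by DESeq2. MT-ATP8 had 33.8 and 53.1 CPM in c1 and 26.4 and 51.0 CPM in c2, below WT replicates 1 and 2 and overlapping replicates 3 and 4. MT-ND3 had 307, 571, 526 and 811 CPM there and overlapped WT.

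For HCT116 8q-loss edgeR called 0 of 30 members (0.14% of all genes), 11 had an unadjusted p under 0.05, and DESeq2 called 0. MT-RNR1 had 1566 and 1504 CPM in WT, 4231 and 4257 CPM in c1 and 2530 and 2600 CPM in c2. The log2 change was 1.18 ± 0.35 (edgeR adjusted p = 0.518), and without clone c2 it was called, as was MT-RNR2. MT-RNR2 had 8936 and 9085 CPM in WT, 18418 and 22451 CPM in c1 and 12300 and 11721 CPM in c2, at 0.88 ± 0.34 (edgeR adjusted p = 0.739). Groups did not overlap for either rRNA, and all 13 mRNAs had log2 changes below 0. The tRNA MT-TS1 had 0 counts in both WT libraries and 1, 12, 20 and 18 counts in the loss libraries, so no fold change is given for it.

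In AGS, edgeR called 0 of 32 members (7.55% of all genes), 7 had an unadjusted p under 0.05, and DESeq2 called 2, MT-TT lower and MT-RNR1 higher. MT-RNR1 had 648 CPM in WT and 652 CPM in each TK+ clone, and 778, 854, 1228, 1003 and 830 CPM in c1, c4, c6, c7 and c11, all above. Its log2 change was 0.52 ± 0.17 (edgeR adjusted p = 0.0909). MT-ND6 had 995 CPM in WT and 1610 and 1168 CPM in TK+, against 1452 to 2676 CPM in the loss clones, at 0.65 ± 0.25 (edgeR adjusted p = 0.14), with c1 below the higher TK+ clone.

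In A2780 1q-loss, edgeR called 0 of 13 (11.8% of all genes), 2 had an unadjusted p under 0.05 (MT-ND4L and MT-ATP6), and DESeq2 called 0. All 13 log2 changes were below 0, with a median of -0.19. TK+ against WT gave 0 of 13 by edgeR (11.2% of all genes), 0 at an unadjusted p under 0.05 and 0 by DESeq2, with a median of -0.01. Without TK+ replicate 1 this comparison called 9 members, 8 of them lower, and without TK+ replicate 2 it called 7, 6 of them higher. Each of these fits has a single TK+ library, so its spread came from the 2 WT libraries alone, and TK+ replicate 2 had the lower share of the pair, as the second library did in all 5 A2780 sets. Without either WT replicate it called 1. MALAT1, a nuclear RNA, had 242 and 280 CPM in WT and 306 and 544 CPM in TK+, without overlap, and its part was not tested.

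The MCF10A comparisons gave 0 calls by edgeR. After 1q loss 0 of 24 members were called (2.04% of all genes), with 0 at an unadjusted p under 0.05 and 0 by DESeq2. With hRas, 1q loss gave 0 of 25 (0.214% of all genes), 5 at an unadjusted p under 0.05 and 0 by DESeq2, although 23 of 25 log2 changes were above 0 with a median of 0.65. hRas WT against WT gave 0 of 22 by edgeR (1.62% of all genes), 1 unadjusted (MT-ND3, 0.22 ± 0.09) and 0 by DESeq2, with MALAT1 at 111 and 145 CPM in WT and 185 and 192 CPM in hRas WT. hRas 1q-loss against 1q-loss gave 0 of 21 (1.2% of all genes), 4 unadjusted and 1 by DESeq2 (MT-ND3), with all 21 above 0 and a median of 0.33. Each MCF10A group serves in more than 1 of these comparisons. The interaction of 1q loss with hRas gave 0 of 27 members by edgeR (0% of all genes), 1 unadjusted (MT-TH) and 0 by DESeq2.

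**Figure D4:**
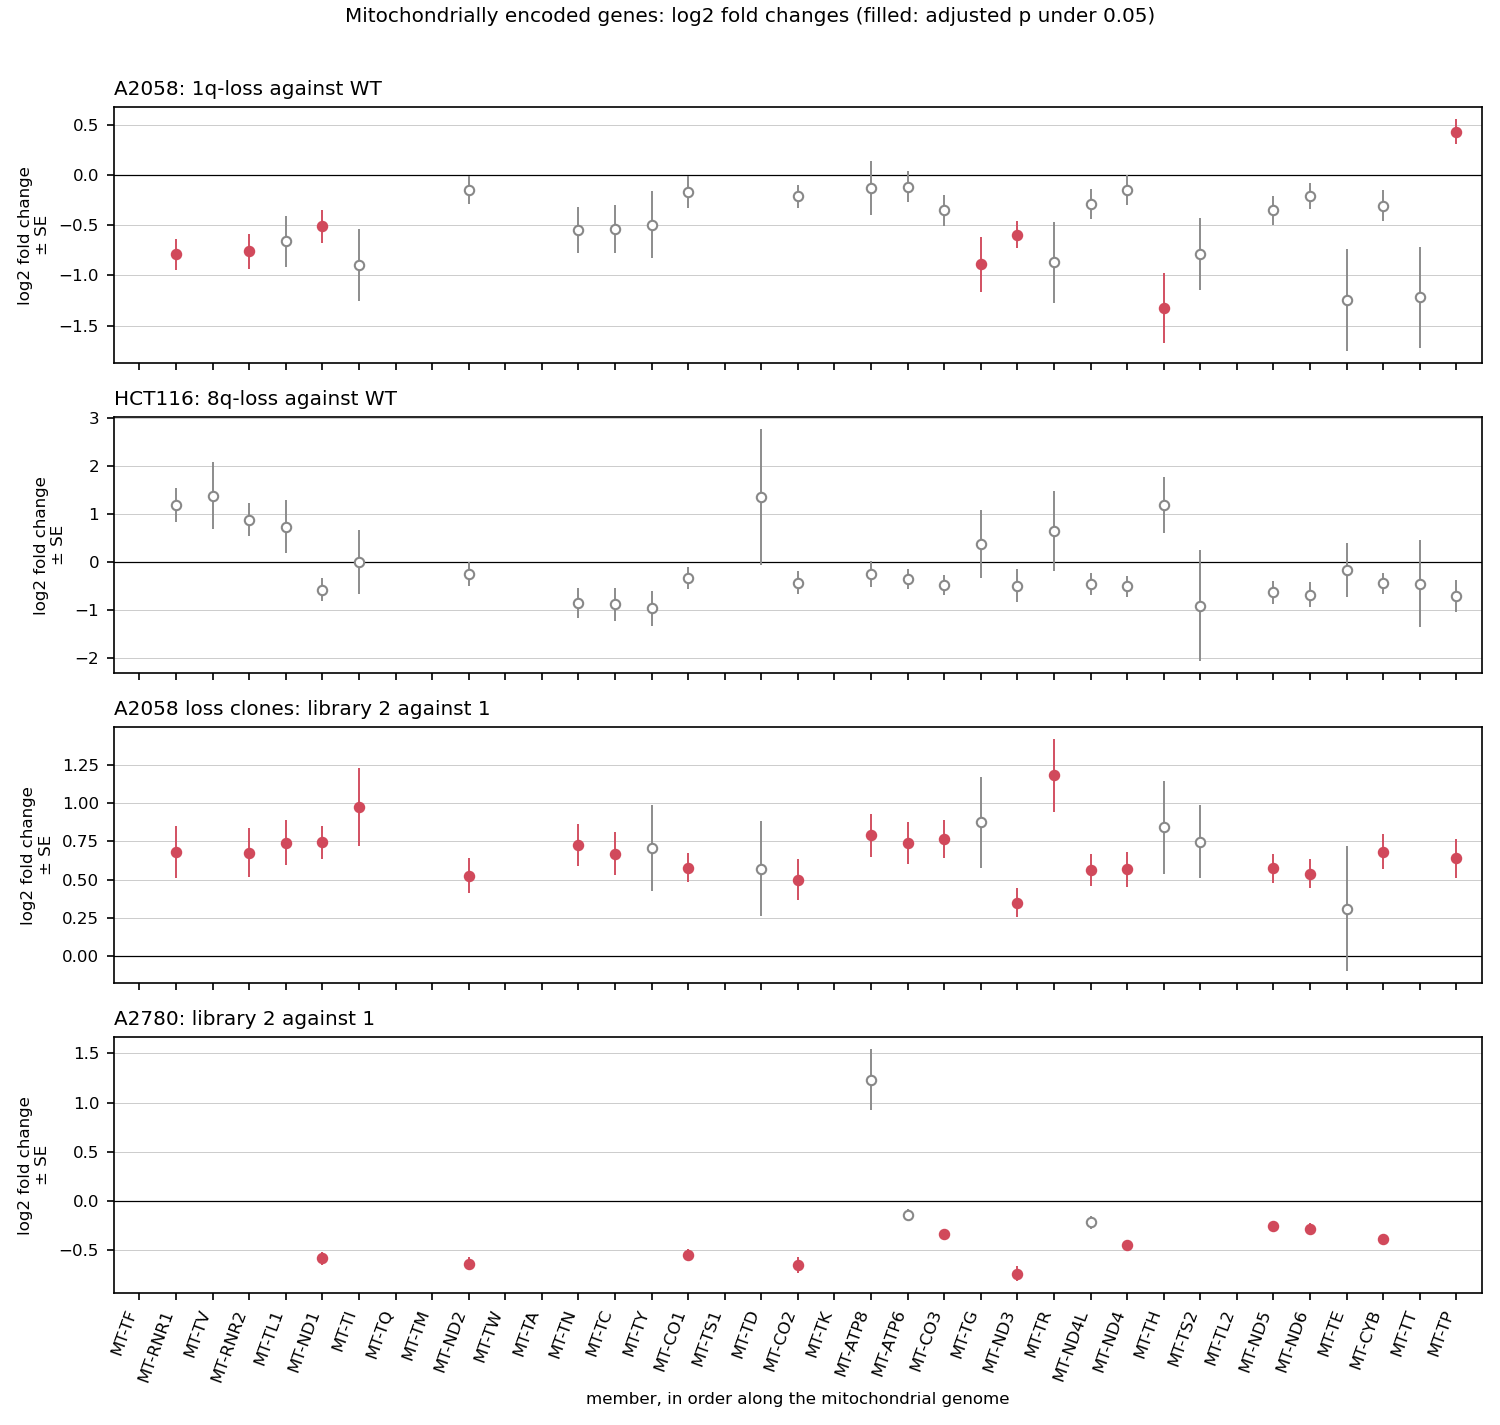
Log2 fold change with its SE (y axis) of each tested member (x axis, in genome order) in 4 panels: A2058 1q-loss and HCT116 8q-loss against WT, and the second against the first library in A2058 loss clones and in A2780. Filled points are called by edgeR, 7, 0, 21 and 10 in that order; members with an SE of 1.5 or more, such as MT-TS1 in HCT116, are not drawn.

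The 2 libraries of a clone carry replicate numbers 1 and 2, and the share moved with that number in 2 lines. In A2780 the second library was lower in 5 of 5 sets, at 0.655 to 0.842 times the first (median 0.783). In A2058 it was higher in 8 of 9 pairs, at 0.964 to 2.33 times the first (median 1.64), with 1q-loss c1 the exception; its WT libraries form the pairs 1 with 2 and 3 with 4. In MCF10A it was higher in 8 of 10 sets (median 1.15) and in HCT116 in 2 of 3. The labels do not say what the numbers stand for, so a shared day or batch is not known.

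Tested over the 7 loss clones of A2058, with the clone as a block, 21 of 27 members were higher in the second library and 0 lower, where edgeR called 12.2% of all genes and 6.61% higher. DESeq2 called 21. All 13 mRNAs and both rRNAs rose, from 0.35 ± 0.09 for MT-ND3 (edgeR adjusted p = 0.0341) to 0.79 ± 0.14 for MT-ATP8 (edgeR adjusted p = 0.00647). MT-RNR1 and MT-RNR2 each rose by 0.68. The highest estimate was that of the tRNA MT-TR, at 1.18 ± 0.24 (edgeR adjusted p = 0.0105). The nuclear RNA NEAT1 was also higher in the second library, by 0.78 (edgeR adjusted p = 0.00206), while MALAT1 was not called (0.33, edgeR adjusted p = 0.161). MALAT1 was higher in the second library of 7 of 9 pairs and the total count in 6 of 9, and the part of depth and RNA quality was not tested. Without 1 clone at a time, MT-ND3 lost its call for 5 of the 7 clones (edgeR adjusted p up to 0.101), all but those of 1q-loss. MT-CO2, MT-RNR1 and MT-RNR2 lost theirs without 8q-loss c1 or c2 or 7p-loss c2 or c3 (edgeR adjusted p up to 0.0906, 0.0742 and 0.0648).

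In A2780, 10 of 13 mRNAs were lower in the second library and 0 higher, where edgeR called 0.198% of 14660 genes and 0.171% lower. These 10 stand among 29 genes called in all, and DESeq2 called 11 members. MT-ND3 had 1850 and 875 CPM in c2, 1659 and 953 CPM in c5, 1708 and 1234 CPM in c6, 1666 and 1280 CPM in WT and 1837 and 1109 CPM in TK+ (first and second library). Every second library lay below every first, with a log2 change of -0.74 ± 0.08 (edgeR adjusted p = 0.000597). MT-CO2 had 7319 and 3847, 6877 and 4437, 6940 and 5849, 6387 and 4860, and 7618 and 4289 CPM in the same order, also without overlap between first and second libraries (-0.65 ± 0.08, edgeR adjusted p = 0.0012).

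Between the mRNAs the fall was unequal. MT-ND5 and MT-ND6, neighbours on opposite strands, fell by 0.25 and 0.28, and MT-ND2 and MT-ND1 by 0.64 and 0.58, all on the log2 scale. The calls of MT-ND5, MT-ND6 and MT-CO3 were lost without clone c2 (edgeR adjusted p = 0.426, 0.426 and 0.305) and without TK+ (0.245, 0.26 and 0.123). Within the mRNA counts MT-ND2 and MT-ND3 lost share in 5 of 5 sets and MT-CO3, MT-ND5 and MT-ND6 gained in 5 of 5. MT-ATP8 went the other way in 4 sets, with 33.1 and 120 CPM in c2, 25.2 and 106 CPM in c5, 47.8 and 121 CPM in WT and 31.4 and 124 CPM in TK+, but 99.3 and 50.5 CPM in c6 (1.23 ± 0.31, edgeR adjusted p = 0.0947). Of the nuclear-coded subunits of complexes III to V, 33 of 36 were below 0 and a median of -0.23, though edgeR called 0 (26 at an unadjusted p under 0.05). The nuclear RNAs NEAT1 and MALAT1 were at 0.24 and 0.15 for the second library, neither called (edgeR adjusted p = 0.0799 and 0.55). RNAs without poly(A) were higher in the second library in 1 of 5 sets and depth in 2 of 5. The part of these was not tested.

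In MCF10A all 20 members tested had log2 changes above 0 for the second library, with a median of 0.28. edgeR called 0 (0% of all genes), 16 had an unadjusted p under 0.05, and DESeq2 called 0. MT-CO1 was at 0.29 ± 0.07 (edgeR adjusted p = 0.228). MALAT1 was higher in the second library in 8 of 10 sets, though not called (0.12, edgeR adjusted p = 0.591), and its part was not tested. In HCT116 edgeR called 0 of 30 (0.0136% of all genes), 2 had an unadjusted p under 0.05, and DESeq2 called 0.

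**Figure D5:**
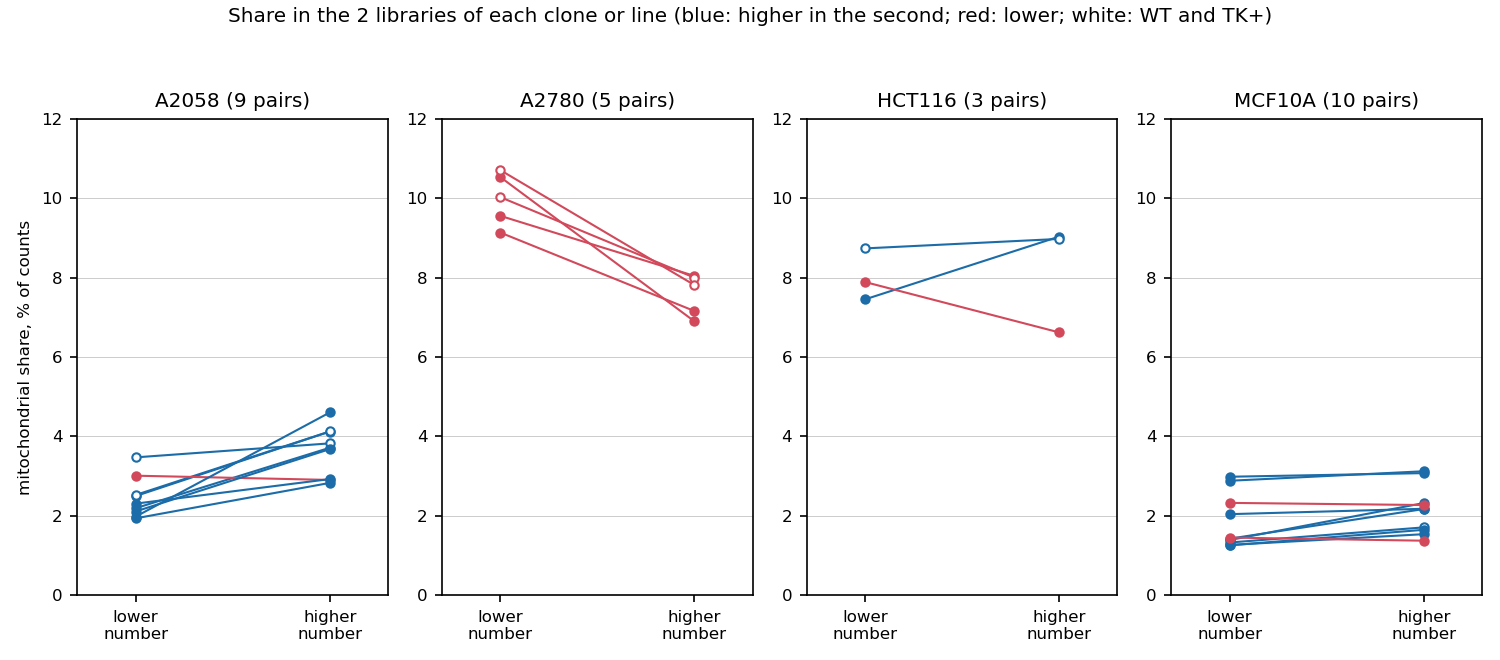
Mitochondrial share (y axis, percent of counts) in the first and second library of each clone or line, joined by a line, in panels by cell line. Blue marks a higher and red a lower second library, and white points are WT and TK+; A2780 pairs all fall and 8 of 9 A2058 pairs rise.

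Clones of 1 loss group also differed. Between the 4 hRas 1q-loss clones of MCF10A, edgeR called 20 of 23 members (65.3% of all genes), all but MT-TR, MT-TH and MT-TE. MT-RNR2 had 756 and 857 CPM in c1, 2301 and 2395 CPM in c2, 1078 and 1046 CPM in c3 and 1958 and 2061 CPM in c4 (edgeR adjusted p = 2.87e-19). MT-CO1 had 2984 and 3751, 7032 and 7392, 3132 and 2888, and 6896 and 7736 CPM in the same order (edgeR adjusted p = 7.43e-17). Every library of c2 and c4 lay above every library of c1 and c3 for both genes. MALAT1 split the same way, at 329 to 456 CPM in c2 and c4 and 144 to 206 CPM in c1 and c3. So did NEAT1, at 98.9 to 168 CPM against 49.6 to 67.1 CPM (edgeR adjusted p = 3.2e-11), and RN7SL2, without poly(A), was called as well (edgeR adjusted p = 0.0479). Clones c2 and c4 were also the ones with the lowest KRT5 and the highest DCN. The part of these was not tested. Without c2, a fit added after seeing the data, edgeR called 19 of 23 members. The comparisons of hRas 1q-loss with hRas WT and with 1q-loss, described above, gave 0 calls by edgeR with c2 and without it.

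Without hRas, edgeR called 6 of 24 members between the 4 clones (8.51% of all genes). They were MT-RNR2, MT-TN, MT-ND2, MT-TC, MT-ND6 and MT-CO2. MT-RNR2 had 832 and 792 CPM in c1, 1249 and 1272 CPM in c2, 1111 and 1347 CPM in c3 and 1551 and 1509 CPM in c4 (edgeR adjusted p = 0.000612). MALAT1 was also called between these clones (edgeR adjusted p = 0.00111), at 132 and 135 CPM in c1, 191 and 208 CPM in c2, 225 and 162 CPM in c3 and 279 and 291 CPM in c4. For both genes c1 was lowest and c4 highest, and the part of MALAT1 was not tested. The count of calls was 2 without clone c1 or c4 and 14 without c3, and by library it ranged from 3 without c4 replicate 1 to 15 without c3 replicate 2 and 13 without c3 replicate 1. Labels number the clones alike with and without hRas, but whether a numbered hRas clone descends from its namesake is not given.

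Between the HCT116 clones 7 of 30 members were called by edgeR (18.5% of all genes). Both rRNAs were lower in c2, at the values above (MT-RNR2, edgeR adjusted p = 0.000713). RN7SL2, an RNA without poly(A), was called between these clones too (edgeR adjusted p = 0.0214), and the summed RNAs of that kind were at 16.4 and 6.73 CPM in c1 and 4.98 and 4.74 CPM in c2. Their part was not tested. MT-ND3 had 1588 and 1158 CPM in c1 and 934 and 796 CPM in c2 (edgeR adjusted p = 0.0116), and the others were MT-TC, MT-ND2, MT-TR and MT-TY. Without either library of c1 15 members were called, and without either of c2 2. A2058 1q-loss clones gave 1 of 25 (MT-ND2, 6.13% of all genes), which was lost without any library but c2 replicate 2, whose absence gave 6. A2058 7p-loss gave 0 of 33 by edgeR (29.4% of all genes, 0 at an unadjusted p under 0.05), 8q-loss 0 of 32 (0.592%, 0 unadjusted, and 2 without c1 replicate 2) and A2780 0 of 13 (20.6%, 0 unadjusted). In the groups of 2 clones, each fit without a library left 1 clone with a single library, so its spread came from the other clone alone. DESeq2 was not run between clones.

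The tRNAs made up 0.167 to 1.04% of member counts over the 52 libraries that list them. MT-TC held 38.4% of all tRNA counts, MT-TN 28.9%, MT-TP 18.6% and MT-TL1 3.51%, and the 8 tRNAs of the light strand held 89.9%. MT-TF, the first gene after the heavy-strand promoter, was at 0 in 30 of 52 libraries and reached at most 8 counts. A count of 0 allows up to 3 counts in that library. In HCT116 WT, MT-TC had 256 and 176 CPM, against 86.1 to 139 CPM in the 4 loss libraries, without overlap (-0.89 ± 0.34, edgeR adjusted p = 0.739). The line order differed too: MT-TP led in A2058 with 36.9% of tRNA counts and MT-TC in AGS with 46.8%. Without a known strand setting, reads from the opposite strand cannot be told apart from these light-strand tRNAs.

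Nuclear copies collected reads in every line. MTATP6P1 had 581 to 5038 counts in the 52 libraries with GRCh38 tables and 11916 to 18498 in A2780. Per 100 counts of MT-ATP6 this was 1.91 to 2.47 in HCT116, 1.93 to 3.70 in MCF10A, 3.63 to 7.72 in AGS, 3.31 to 9.78 in A2058 and at least 11.5 in A2780. MTND2P28 had 641 to 6412 and 9180 to 15703 counts and MTCO1P12 47 to 1208 and 2209 to 4399. The other 4 were nearly empty outside A2780: MTND1P23 had 0 to 17 counts against 3877 to 7511, MTCO2P12 0 to 8 against 133 to 535, MTCO3P12 0 to 8 against 84 to 353, and MTATP8P1 0 in all 52 against 0 to 3. In the A2058 comparison by replicate number 3 of 3 tested were higher (6.61% of all genes). In A2058 1q-loss 2 of 3 were lower (24.3% of all genes), MTATP6P1 by 0.74 and MTCO1P12 by 1.07 on the log2 scale. By replicate number in A2780, 1 of 6 was lower (0.171% of all genes), MTND1P23 by 0.40.

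Nuclear genes that make and handle mitochondrial RNA were followed as a list of 40 (39 tested in A2780). In A2058 1q-loss 17 were called, 7 higher and 10 lower, where 49.6% of all genes were called, 25.3% higher and 24.3% lower, so the list's share of calls was below that of all genes. MTERF2, a transcription terminator family member, fell by 1.00 on the log2 scale, MRPL12, a ribosomal protein that also binds POLRMT, by 0.52, and LRPPRC, which stabilises mitochondrial mRNAs, by 0.39 ± 0.09 (edgeR adjusted p = 0.00428). PTCD2, TEFM and SSBP1 were the 3 highest, at 0.35, 0.34 and 0.32. POLRMT rose by 0.31 (edgeR adjusted p = 0.00294) and TFAM by 0.23 (edgeR adjusted p = 0.0211). Between A2780 TK+ and WT 2 of 39 were called (11.2% of all genes): GRSF1, an RNA-binding protein of mitochondrial RNA granules, rose by 0.33 (edgeR adjusted p = 0.0221) and FASTKD1 fell by 0.39 (edgeR adjusted p = 0.0128). By replicate number in A2058 1 of 40 was called (12.2% of all genes), FASTK, higher by 0.24 (edgeR adjusted p = 0.019). In AGS 2 of 40 were called (7.55% of all genes): SSBP1, the single-stranded DNA binding protein, rose by 0.47 (edgeR adjusted p = 0.0324) and PNPT1, an RNA exonuclease subunit, fell by 0.56 (edgeR adjusted p = 0.0399). Of POLRMT, TFAM and LRPPRC none was called in any other loss comparison.

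TFB2M, the factor that melts mitochondrial promoters, lies on 1q (chromosome 1 246540560 to 246566324, GRCh38) the arm removed in these clones. It was below its controls in all 5 1q-loss comparisons and called in 3. In MCF10A it had 72.4 and 77.0 CPM in WT and 39.9 to 57.2 CPM (median 46.5) in the 8 loss libraries (-0.69 ± 0.12, edgeR adjusted p = 0.00523). With hRas it had 74.2 and 76.8 CPM in WT and 29.5 to 53.8 CPM (median 41.0) in loss (-0.84 ± 0.21, edgeR adjusted p = 0.16). In A2780 it had 49.3 to 52.3 CPM in the 4 gain libraries and 30.4 to 39.9 CPM (median 36.8) in loss (-0.50 ± 0.09, edgeR adjusted p = 0.00467). AGS had 27.3 to 29.7 CPM with the gain and 20.9 to 24.4 CPM without (-0.38 ± 0.11, edgeR adjusted p = 0.0726), and A2058 67.6 to 83.9 CPM in WT and 57.6 to 63.6 CPM in 1q-loss (-0.24 ± 0.08, edgeR adjusted p = 0.0332). Loss and control ranges of TFB2M did not overlap in any of the 5. In the A2058 groups where another arm was removed, it had 32.4 to 84.2 CPM (median 78.8) in 7p-loss and 74.5 to 78.6 CPM in 8q-loss. The lowest 7p-loss library thus lay below every A2058 1q-loss library.

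On 7p, TBRG4, a regulator of mitochondrial RNA, fell in A2058 7p-loss (227 to 236 CPM in WT against 115 to 183 CPM, -0.60 ± 0.11, edgeR adjusted p = 0.0366). On 8q, TOP1MT, the mitochondrial topoisomerase, fell in A2058 8q-loss from 43.0 to 50.4 CPM to 27.6 to 31.1 CPM (-0.74 ± 0.08, edgeR adjusted p = 0.00258). MTERF3 fell there by 0.61 and CYC1, the cytochrome c1 subunit of complex III, by 0.64. In HCT116 8q-loss the same 3 genes were at -1.03 for MTERF3, -0.89 for TOP1MT and -0.67 for CYC1, none of them called. There edgeR called 0 of the 40 RNA-handling genes (3 at an unadjusted p under 0.05) and 0 of the 36 subunits, CYC1 among them (2 at an unadjusted p under 0.05). In A2058 8q-loss UQCRB was at -0.63 and COX6C at -0.39, neither called, and NDUFA4 in 7p-loss at -0.54 was not called. Some of these genes were also below WT without overlap in A2058 1q-loss, where another arm was removed. There TBRG4 had 184 to 201 CPM and CYC1 198 to 239 CPM (269 to 291 in WT). UQCRB had 113 to 128 CPM (150 to 167 in WT), NDUFA4 82.2 to 92.0 CPM (117 to 147) and COX6C 62.9 to 68.5 CPM (79.2 to 130). TOP1MT and MTERF3 overlapped WT in 1q-loss.

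Of 36 nuclear-coded subunits of complexes III to V, which are built together with the mitochondrial products, 23 were called in A2058 1q-loss, 22 lower and 1 higher. ATP5ME fell by 0.99, ATP5MC3 by 0.83 and COX6C by 0.64, and COX7A2L rose by 0.18. The median log2 change was -0.27 for these subunits and -0.21 for the 13 mitochondrial mRNAs, where 49.6% of all genes were called. In the other loss comparisons edgeR called at most 1, CYC1 in A2058 8q-loss. Between clones edgeR called 22 of the 40 RNA-handling genes and 6 of these subunits in A2058 7p-loss (29.4% of all genes), where no member was called. It called 8 and 14 in HCT116 (18.5% of all genes) and 30 and 28 in the MCF10A hRas clones (65.3% of all genes).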

How the data were processed

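Poly-T selected RNA of 62 libraries was sequenced. The authors deposited 1 table of raw counts per gene and library, with gene symbols. Per the submitters' processing notes, reads were aligned with HISAT2 2.0.5 to hg38 and counted with featureCounts 1.5.0-p3, while the A2780 tables carry GRCh37 coordinates, so the notes and those tables differ. The annotation release and strand setting are not given in the sources used here.

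From these counts, edgeR 4.0.16 (R 4.3.3, filterByExpr at minimum count 10 and minimum total 15, TMM, glmQLFit, glmQLFTest, limma 3.58.1) compared only the libraries of each comparison; p-values were two-sided and Benjamini-Hochberg adjusted over all genes tested. SE was taken as the absolute log2 change over the root of F. CPM are counts over the library total. Shares and ratios carry no test. Replicate number was tested with clone or line as a block. The pipeline was tested on simulated data. DESeq2 1.42.0, RLE factors, scaling without mitochondrial genes, no filter, summed clones, the replicate block and leaving out libraries or clones were alternatives. Tables and plots used Python 3.11.15 with pandas 2.3.3, numpy 2.4.6, matplotlib 3.10.9 and scipy 1.17.1. Sequences come from GENCODE 29 transcripts.

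The members and lists were chosen with earlier results of these data known. All members were to be named or counted; of the 40 RNA-handling genes POLRMT, TFAM, TFB2M and LRPPRC were to be named, of both nuclear lists the 3 genes called with the highest absolute change in each direction, and all nuclear copies. Lost-arm genes that were not called were added after their values were seen.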

Additional observations from a re-analysis of the deposited data

Results flagged for a closer look

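In A2058 1q-loss, clone c2 replicate 1 had a mitochondrial share of 2.30% while the other 3 libraries of the group lay at 2.90, 2.92 and 3.01%, a gap that takes up most of the range of the group. Of 26 group and measure combinations of 4 to 8 libraries, 1 stood out in this way, and chance marks about 1 in 20.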

How the results depend on the processing

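Of the counts of members called, 287 values under alternatives were equal to or within 1.5 times the value reported and 42 were not. The 287 include every 0 against a reported 0, and most comparisons had a reported value of 0. For single members named, 395 kept their call, 44 lost it and 0 changed direction, and of shares and ratios 146 moved by less than the spread between libraries and 1 by more.

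In A2058 1q-loss, where 7 members were called, DESeq2 gave 11, no filter 15, the replicate block 12, WT replicates 1 and 2 only 11, and clone libraries numbered 1 only, an alternative chosen after seeing the data, 4. DESeq2 gave 2 in A2058 7p-loss, 2 in AGS and 1 in hRas 1q-loss against 1q-loss, each against 0. hRas WT against WT gave 5 with no filter and 2 with the replicate block, and A2780 TK+ against WT 1 with the block, each against 0. The comparison by replicate number in MCF10A gave 15 with no filter, also added later, against 0. The HCT116 share difference was -0.44 over the 13 mRNAs and -0.20 over all members. The causes of these shifts were not tested.

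Leaving out 1 library or clone gave 4 to 23 calls in A2058 1q-loss, 0 to 2 in HCT116 8q-loss, 0 to 1 in AGS (1 without clone c11), 0 to 1 in A2780 1q-loss (1 without c6 replicate 1), 0 to 1 in hRas WT against WT (1 without hRas WT replicate 2), 0 to 1 in hRas 1q-loss against 1q-loss (1 without clone c1 or c3) and 1 to 9 in A2780 TK+. By replicate number the ranges were 16 to 25 in A2058, 7 to 11 in A2780 and 0 to 1 in HCT116 (1 without 8q-loss c2), and between clones 0 to 6 in A2058 1q-loss, 0 to 2 in 8q-loss, 2 to 15 in HCT116, 2 to 15 in MCF10A and 19 to 22 with hRas. The other comparisons stayed at 0.

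Same-numbered libraries did not all deviate together: the correlation of their deviations exceeded 0.1 in 22 of 28 pairs of sets in A2058, 6 of 10 in A2780, 12 of 45 in MCF10A and 1 of 3 in HCT116, so the numbers were not taken as pairing.

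Depth limits the tRNAs most, since many had under 10 counts.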
